A study of Pilatotrama ljubarskyi with 14 samples.

Results

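Genes with their highest transcript level on pine wood were examined in strain BRFM1659 of Trametes ljubarskyi, a white-rot fungus. They were chosen from the authors' mean log2 normalized read count on each of 5 carbon sources. A gene was a member when its pine value exceeded the highest of the other 4 values by at least 0.4 (a 1.32-fold difference) and was at least 4. In addition, the lowest of its wheat straw, aspen and pine values had to lie less than 1 above cellulose. Of the 878 genes in the deposited table, 63 (7.18%) met the rule. Another 7 genes met it apart from the last condition, because all 3 plant materials lay 1 or more above cellulose. The table pairs gene numbers of the JGI MycoCosm annotation with no names or functions, so genes are given by number and no role is stated for any of them.

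White-rot fungi degrade lignin as well as the polysaccharides of wood, with secreted peroxidases and other oxidases, oxidative enzymes that open crystalline cellulose, and glycoside hydrolases. Pine is a softwood. Its lignin is built mainly of guaiacyl units, its main hemicellulose is a galactoglucomannan, and its wood carries resin. Aspen is a hardwood with a mixed guaiacyl and syringyl lignin and a xylan as its main hemicellulose, whereas wheat straw is a grass material rich in arabinoxylan. Avicel is microcrystalline cellulose with little else, and maltose is a soluble sugar.

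All mycelia were of the same strain and were grown for 3 days in shaken liquid culture with yeast extract and salts. The maltose group had maltose at 20 g/l. The cellulose, wheat straw and pine groups had maltose at 2.5 g/l together with 15 g/l of Avicel, ground straw or ground pine wood, and the aspen group had 15 g/l of milled aspen wood with an amount of maltose that could not be read from the labels. The particles were sifted for pine and straw and Wiley-milled to a finer size for aspen, so tree species and milling cannot be told apart. Differences of cellulose, straw or pine from the maltose group also hold the change from 20 to 2.5 g/l of maltose. The solid substrate and that change cannot be told apart. Any difference of aspen from another group holds an unknown difference in maltose. There were 3 polyA RNA libraries for each of maltose, cellulose, straw and aspen and 2 for pine, and the labels do not say whether libraries came from separate cultures. All p-values measure only the spread among these libraries, which may be technical.

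The deposited columns are means, and reads of single libraries were recovered from them for 3954 of 4390 values (90.1%). The libraries are called A, B and C within a substrate, and which labelled replicate each one is remains unknown. Recovered genes held 2881179 and 2143068 reads in pine libraries A and B (877 genes). They held 705007 to 1020350 in the other libraries (740 to 789 genes). Levels above 13 were searched only in pine, so these totals do not measure depth. Relative depths from the scaling factors were 0.952 and 0.646 in pine libraries A and B, and 0.761 to 1.30 in the others. Both pine libraries were recovered for 63 of 63 members, and all 14 libraries for 52 of them. The other 11 lack reads on at least 1 substrate other than pine. A level below is log2(normalized reads + 1), and differences between levels are on that scale, which understates changes of genes with few reads.

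Among the libraries of their own substrate, 2 stood apart. Cellulose library C was the lowest of its substrate in 43 of 56 members (in 55.9% of all 740 genes recovered there), with a median 0.34 below the mean of the other two over the members and 0.17 below over all genes. Maltose library B was the lowest in 34 of 54 members (52.9% of all 789 genes), with a median 0.16 below the other two over the members and 0.12 over all genes. Without maltose library B, 51 of the 54 members with reads there still met the rule, and without cellulose library C, 48 of 56 did. The 2 pine libraries differed by a median of 0.17 in size for the members and also for all genes, and library A was the higher one in 29 of 63 members.

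For most members pine stood only slightly above the next substrate. The pine surplus, the pine value minus the highest of the other 4, had a median of 0.58 (1.49-fold) over the members, with quartiles of 0.45 and 0.80. It ran from 0.40 to 1.96. It was under 0.5 in 22 members and at least 1 in 6. These values chose the members and are given as a description, with no test. The values run on across the threshold without a gap. Genes 1039907 and 1055488 lay just inside it with surpluses of 0.40 and 0.41, and genes 1112745 and 984047 just outside with 0.39 each. Over all 878 genes, 210 (23.9%) had their highest value on pine, of which 140 had a surplus under 0.4.

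**Figure D1:**
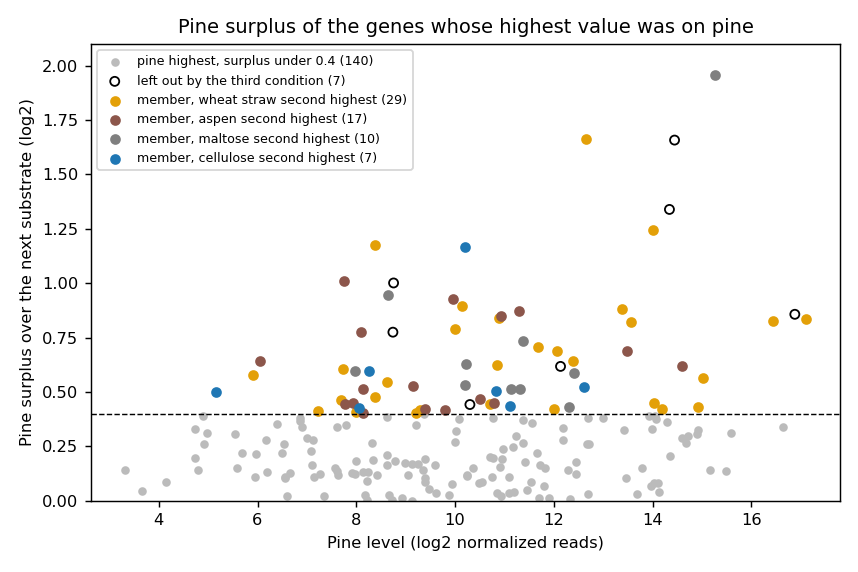
Pine surplus (vertical axis, log2) against the pine level (horizontal axis, log2 normalized reads) for the 210 genes whose highest deposited value was on pine. Coloured points are the 63 members by their second highest substrate, open circles the 7 genes left out by the third condition, grey points the 140 genes under the threshold (dashed line); most members sit between the threshold of 0.4 and the upper quartile of 0.80.

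The second highest substrate divided the members into 4 classes. It was wheat straw for 29 members, aspen for 17, maltose for 10 and cellulose for 7. In the straw class pine exceeded straw by a median of 0.61, cellulose by 0.95, aspen by 1.25 and maltose by 1.45. In the aspen class the median differences were 0.53 from aspen, 0.78 from straw, 1.19 from maltose and 1.23 from cellulose. In the maltose class they were 0.59 from maltose, 0.97 from straw, 1.04 from cellulose and 1.15 from aspen. In the cellulose class they were 0.51 from cellulose, 0.57 from straw, 0.83 from maltose and 0.88 from aspen.

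**Figure D2:**
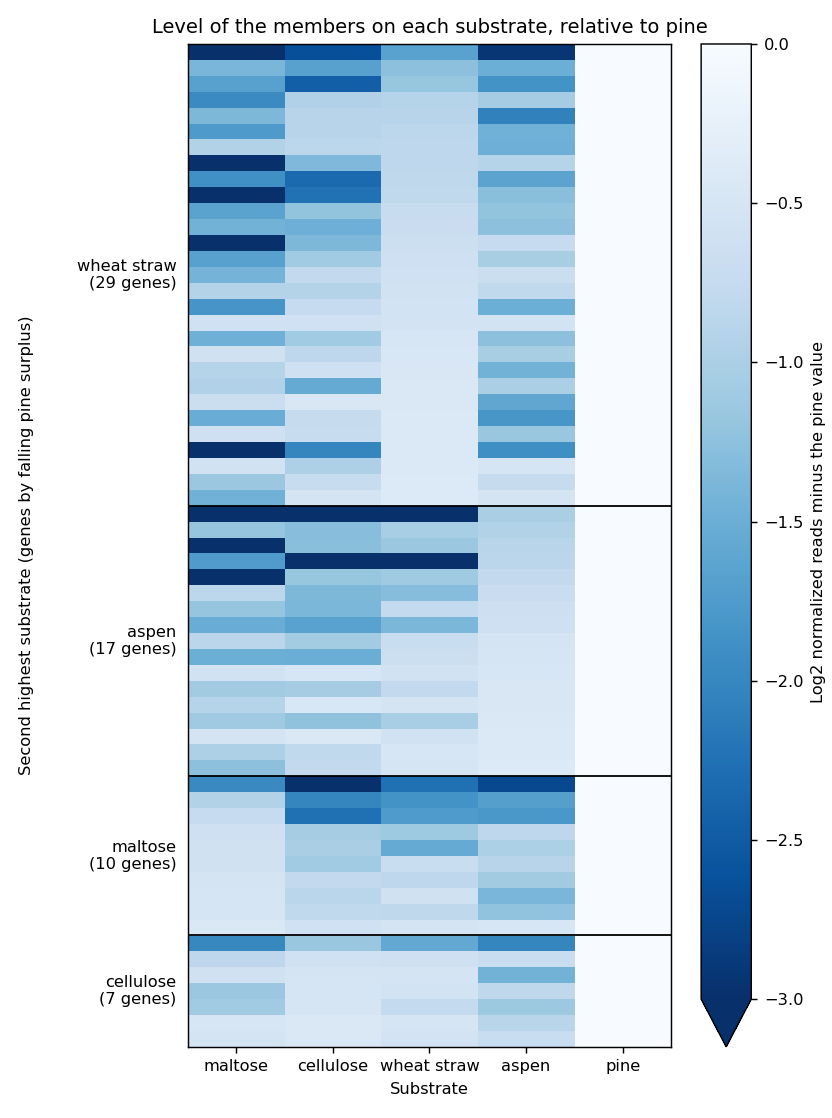
Level of each of the 63 members (rows) on each substrate (columns) minus its pine level, on the log2 scale, in 4 blocks by the second highest substrate and ordered by falling pine surplus within a block. Darker blue is further below pine, and values under -3 have the darkest colour; the straw block (29 genes) is palest on straw and the aspen block (17 genes) on aspen, as the blocks were defined.

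The range over the 4 substrates other than pine had a median of 0.84 among the members and 1.46 over all genes. It was under 1 in 40 of 63 members (63.5%, against 31.7% of all genes). The 4 substrates lay within 0.5 of each other in 12 members (in 8.2% of all genes). In 8 members the range was 2 or more, and in 55 it was under 2 (in 64.1% of all genes). The rule leaves out each member's highest value here and holds the others below it, so these counts are a description and were not tested. Nothing is read from their differences from all genes. The lowest of the 5 values was on maltose in 26 members (41.3%, against 38.3% of all genes), on cellulose in 18 (28.6% against 14.2%), on aspen in 15 (23.8% against 25.5%) and on straw in 4 (6.35%, against 97 of 878 genes). A member cannot be lowest on pine, as other genes can, and the third condition involves cellulose. The shares are therefore not directly comparable, and nothing is read from their differences.

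The pine surplus was set against the spread between libraries. Among the 52 members recovered in every library, both pine libraries lay above all 12 other libraries in 50, where this held for 13.7% of the 671 tested genes with every library recovered. The members were chosen for a high pine mean, so nothing is read from this difference. After each library was shifted to the same median, 40 of the 52 had both pine libraries above all others. The share over all genes was not counted after that shift, so nothing is read from it. Before the shift, the libraries overlapped in 2 of the 52 members. Gene 297984 had pine values of 5.07 and 5.25 and a straw value of 5.33 in library B. Gene 958322 had pine values of 8.48 and 8.29 but 9.58 in maltose library B, where 757 reads were recovered against 40 and 36 in the other two maltose libraries. These 2 genes are named for the overlap, after their values were seen. In genes 1051153 and 968350, also named afterwards, the 2 pine libraries differed by more (0.61 and 0.52 in size) than the pine surplus (0.58 and 0.47).

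The surplus over the highest other mean was also taken for each pine library, again as a description of values that chose the members. That of pine library A ran from 0.21 to 1.71 with a median of 0.57, and that of library B from 0.28 to 2.28 with a median of 0.59. With pine library A left out, 53 of the 63 genes still met the whole rule and 16 others joined them. With library B left out, 51 still met it and 9 joined.

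How many genes count as members depended on the scaling. The pine column had a median of 9.31 over all genes, against 9.36 for straw, 9.35 for cellulose, 9.15 for aspen and 8.87 for maltose. When the 5 columns were brought to the same median, 35 of the 63 members still met the rule, and 37 genes in all. Of the 28 lost ones, 27 fell below a surplus of 0.4, with a median of 0.46 and a highest value of 0.73 as deposited. The remaining one, gene 982235, kept a surplus of 0.83 and left through the third condition, since its 3 plant materials then lay at least 1.17 above cellulose. The loss fell unevenly on the classes, with 22 of 29 kept where straw was second, 8 of 17 for aspen, 3 of 7 for cellulose and 2 of 10 for maltose. Pine remained the highest value in 62 of 63. This split holds for column medians only, where pine lay below straw. Gene by gene, pine minus straw had a median of 0.04 over all genes. Median shifts of single libraries were 0.138 and 0.148 for pine, the highest of all, and 0.010 to 0.049 for straw. Membership under those shifts was not counted.

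**Figure D3:**
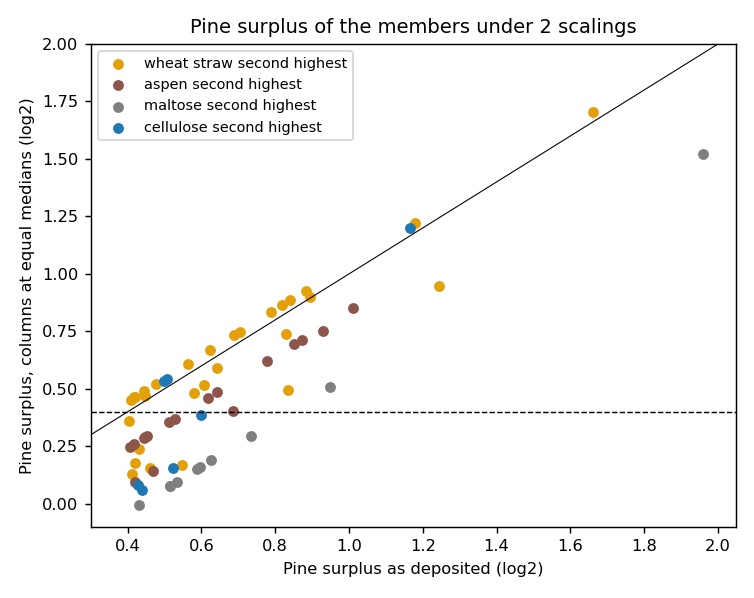
Pine surplus of the 63 members as deposited (horizontal axis, log2) and after the 5 columns were brought to equal medians over all genes (vertical axis, log2), coloured by the second highest substrate. The thin line marks equal values and the dashed line the threshold of 0.4; 36 members stay above the dashed line, and most of the maltose class (8 of 10) falls below it.

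Gene 935358 had the largest surplus as deposited, 1.96. Its deposited means were 15.25 on pine, 13.29 on maltose, 12.99 on wheat straw, 12.54 on aspen and 11.91 on cellulose, so that pine was 3.89-fold above maltose. The pine libraries held 14.94 and 15.57. All recovered libraries of other substrates lay lower, at 13.14, 12.55 and 13.27 on straw, 12.34, 12.94 and 12.34 on aspen and 12.34, 12.34 and 11.04 on cellulose. At these levels, straw and aspen libraries were searched only within 1 of the mean and cellulose libraries within 2. The maltose reads of this gene were not recovered. Its surplus was 1.52 with columns at equal medians and 1.64 without pine library B, in both cases below that of gene 963248 (1.71 and 1.71).

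Gene 963248, the next by surplus as deposited, led the straw class. The pine libraries reached 12.69 and 12.60, against 11.09, 10.74 and 11.13 on straw. On cellulose the values were 10.61, 10.32 and 9.12, on aspen 9.91, 9.59 and 9.67, and on maltose 9.24, 9.76 and 8.88. No library of another substrate came within 1 of the pine values. The surplus over straw was 1.66 (3.17-fold), and pine exceeded maltose by 3.36 (10.2-fold). Cellulose library C was again the low one, by more than 1 from its partners.

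Gene 968252, also of the straw class, had a flat profile with a step on pine. Its 12 libraries on the other substrates lay between 12.28 and 12.87, and the pine libraries held 13.80 and 14.23. At these levels, libraries outside pine were searched only within 1 of the mean, so a wider spread could not have been recovered. The reads were 13547 and 12452 on pine and 5142 to 7427 elsewhere. The surplus was 1.25 (2.37-fold) as deposited and 0.95 with equal medians.

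Where cellulose came second, gene 70100 had the largest surplus, 1.17 (2.24-fold). Its pine libraries held 9.91 and 10.48. The cellulose libraries followed at 9.18, 8.67 and 9.24, then straw at 8.55, 8.85 and 8.47, aspen at 7.99, 8.39 and 8.18, and maltose at 7.89, 8.87 and 7.89. Both pine libraries lay above all others. Gene 1028527, the next of this class, stood at 8.45 and 8.05 on pine, while its other libraries lay between 6.86 (maltose library B) and 7.83.

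Gene 947363 was second to gene 935358 in the maltose class. It held 8.58 and 8.72 on pine and 7.62, 7.83 and 7.66 on maltose. The 9 libraries of the remaining substrates lay from 6.39 to 7.15, below those of maltose and of pine. Its surplus of 0.95 (1.93-fold) was 0.51 with equal medians.

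In the aspen class gene 962148 had few reads outside the woods. The reads were 193 and 147 on pine and 162, 110 and 97 on aspen. They were 12, 10 and 8 on straw, 4, 6 and 7 on cellulose, and 5, 1 and 6 on maltose. The levels of 7.67 and 7.84 on pine and 6.97, 6.69 and 6.56 on aspen did not overlap, and the highest value elsewhere was 3.57. The surplus of pine over aspen was 1.01 (2.02-fold), which became 0.85 with equal medians. It was the only member in which aspen too exceeded maltose, cellulose and straw by 1 or more, a pattern of 17 of the 878 genes. Gene 975291, the next of the aspen class, stood at 9.95 in both pine libraries, and its other 12 ranged from 8.25 (maltose library B) to 9.09.

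**Figure D4:**
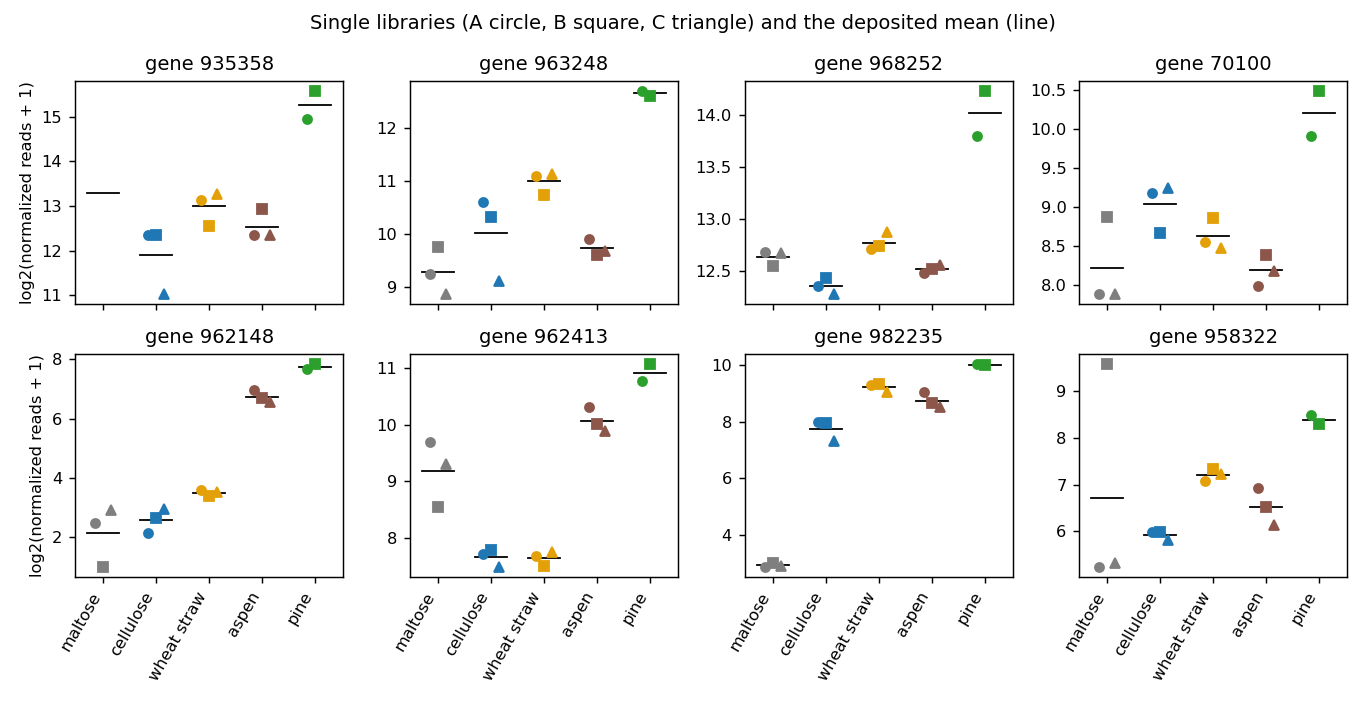
Level of 8 members in each recovered library (points; vertical axis, log2 normalized reads + 1; circles A, squares B, triangles C) with the deposited mean of each substrate (lines). Maltose reads of gene 935358 were not recovered; in 7 of the 8 genes both pine points lie above all other recovered points, and in gene 958322 maltose library B (9.58) lies above them.

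By reads, with no correction for gene length, 2 members led on pine. Gene 1048925 had 127145 and 96966 reads in the pine libraries, 4.41% (95% Wilson interval 4.39% to 4.44%) and 4.53% (4.50% to 4.55%) of the reads in recovered genes. Its deposited means were 17.11 on pine, 16.28 on straw, 16.27 on cellulose, 16.18 on maltose and 15.63 on aspen. Gene 1038561 had 82027 and 59040 reads, 2.85% (2.83% to 2.87%) and 2.75% (2.73% to 2.78%). The 63 members together took 16.4% (16.3% to 16.4%) and 16.8% (16.7% to 16.8%). These intervals cover counting error only.

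Differences of cellulose, straw and aspen from maltose, and of aspen from straw, were tested, because none of them is a term of the rule. They are not free of it, since each level had to stay below pine. The rule thus bars genes whose highest value was on maltose (242), cellulose (177), straw (125) or aspen (124). Called shares and median differences of the members are therefore not directly comparable with those of all genes. Nothing is read from how the 2 differ, in any of the comparisons below. The third condition sets straw and aspen against cellulose, and those pairs were not tested. A gene was called at a limma adjusted p under 0.05 and a log2 difference of at least 1, and 63 of 63 members were among the 867 genes tested. On cellulose, 7 members rose relative to maltose and 4 fell (11.1% and 6.35%), where 26.0% of all tested genes rose and 16.7% fell. The median difference was 0.09 for the members and also for all genes. With maltose library B left out, 7 members were called higher and 2 lower of 54 tested, and with cellulose library C left out, 8 higher and 2 lower of 56. Over all genes, these fits called 346 of 776 and 288 of 729 in either direction.

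Gene 1038561 had the largest rise. Its mean was 8.96 on maltose and 15.09 on cellulose, a difference of 6.13 ± 0.50 (standard error; limma, adjusted p = 1.95e-05). Its maltose libraries held 8.23, 10.25 and 8.40. Maltose library B thus had 1205 reads against 323 and 310, and without it the difference was 6.78 ± 0.14. The reads on cellulose, straw and aspen were not recovered, and the error rests on 3 residual degrees of freedom from maltose and pine.

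Gene 982235 came next. It had 7, 7 and 6 reads on maltose and 295, 282 and 166 on cellulose, a difference of 4.81 ± 0.19 (standard error; limma, adjusted p = 4.55e-11). The falls were smaller. Gene 965770 fell by 1.52 on the log2 scale (standard error 0.18; limma, adjusted p = 4.6e-06), from 10.92, 10.29 and 10.69 on maltose to 9.34, 9.22 and 8.77. Gene 962413 fell by 1.52 (standard error 0.23; limma, adjusted p = 5.37e-05), from 9.69, 8.54 and 9.30 to 7.70, 7.78 and 7.49. In both, the groups did not overlap, and pine (11.37 and 10.92) lay above maltose.

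On wheat straw, 14 members rose relative to maltose and 2 fell (22.2% and 3.17%), where 28.3% of all tested genes rose and 19.3% fell. The comparisons with maltose share its 3 libraries. The median difference was 0.34 for the members and 0.16 for all genes. Gene 1038561 was higher by 6.65 ± 0.50 (standard error; limma, adjusted p = 9.37e-06) and gene 982235 by 6.27 ± 0.19 (standard error; limma, adjusted p = 9.32e-12), with 689, 664 and 398 reads on straw. The 2 called falls were gene 962413, by 1.54 (standard error 0.23; limma, adjusted p = 4.03e-05), and gene 965770, by 1.02 (standard error 0.18; limma, adjusted p = 0.000161). The fall of gene 965770 dropped below the size of 1 when maltose library A or C or straw library B was left out (-0.87, -0.99 and -0.94). Without maltose library B, 10 of 54 members were higher on straw and 3 lower. With quantile normalization over the genes recovered in every library, 7 of 52 members were higher and 4 lower, where the restriction to those genes alone gave 10 higher and 2 lower. Over all genes, these 3 fits called 380 of 776, 277 of 670 and 285 of 671 in either direction.

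On aspen, 7 members rose relative to maltose and 1 fell (11.1% and 1.59%), where 23.3% of all tested genes rose and 22.8% fell. The median difference was 0.16 for the members and 0.09 for all genes. Gene 1038561 was higher by 6.58 ± 0.50 (standard error; limma, adjusted p = 1.08e-05) and gene 982235 by 5.79 ± 0.19 (standard error; limma, adjusted p = 1.94e-11), where its aspen reads were 685, 429 and 377. Gene 965770 fell by 1.06 (standard error 0.18; limma, adjusted p = 0.00012), to 9.67, 9.57 and 9.48. That call was lost without maltose library A (-0.91) and with quantile normalization over the genes recovered in every library (-0.82). Without maltose library C, 2 members were called lower, and without library B, 8 of 54 were higher and 1 lower. Calls over all genes are not set beside these last counts, so no difference from other genes is read from them.

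The profiles of genes 1038561 and 982235 therefore had low maltose, high levels on the other 3 solid substrates, and pine 0.83 and 0.79 above straw. In gene 982235 the pine libraries held 10.02 and 9.97, against 9.29, 9.31 and 9.03 on straw, 9.04, 8.65 and 8.51 on aspen, and 7.97, 7.96 and 7.33 on cellulose. No 2 of these groups overlapped except straw and aspen, where the lowest straw value was below the highest aspen value. Maltose was at least 1 below cellulose, straw and aspen in 6 members (9.52%, against 16.7% of all genes). It was at least 1 above all 3 in 1 member (1.59%, against 11.4%). The rule bars the 242 genes whose highest value was on maltose, and those highest on cellulose, straw or aspen, so nothing is read from either difference.

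Aspen and wheat straw were compared directly. Relative to straw, 2 members rose on aspen and 5 fell (3.17% and 7.94%), where 6.23% of all tested genes rose and 17.3% fell. The median difference was -0.19 for the members and -0.18 for all genes. Gene 962148 was higher on aspen by 3.25 ± 0.40 (standard error; limma, adjusted p = 2.29e-05), and gene 962413 by 2.43 ± 0.23 (standard error; limma, adjusted p = 3.23e-06). In gene 962413 the aspen libraries held 10.31, 10.01 and 9.89, and the straw libraries 7.67, 7.50 and 7.74. Its pine libraries, at 10.77 and 11.07, lay above all others, and the cellulose mean of 7.66 was close to the straw mean of 7.64.

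Of the falls, gene 943186 was lower on aspen by 1.48 ± 0.21 (standard error; limma, adjusted p = 6.16e-05). Its reads were 562, 418 and 384 on straw, 228, 156 and 189 on aspen, 235, 192 and 113 on cellulose and 45, 33 and 39 on maltose, with 578 and 417 on pine. The mean levels on straw (8.87) and pine (9.29) lay close together and well above the rest. Its surplus of 0.42 over straw became 0.30 without straw library B, under the threshold of the rule. Gene 1125002 fell from 13.76 on straw to 12.37 on aspen (log2 difference -1.39, standard error 0.15; limma, adjusted p = 0.00103). Its reads were recovered on pine only, so its error has 1 residual degree of freedom.

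The number of members lower on aspen than on straw depended on which genes could be tested. It was 5 of 63 in all, 2 of 52 among those recovered in every library, and 3 of 57 with only the straw and aspen libraries in the fit. Leaving out any straw library, or aspen library B or C, gave 3 called lower. Calls over all genes in these settings are not given here, so the counts do not set the members apart from other genes.

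**Figure D5:**
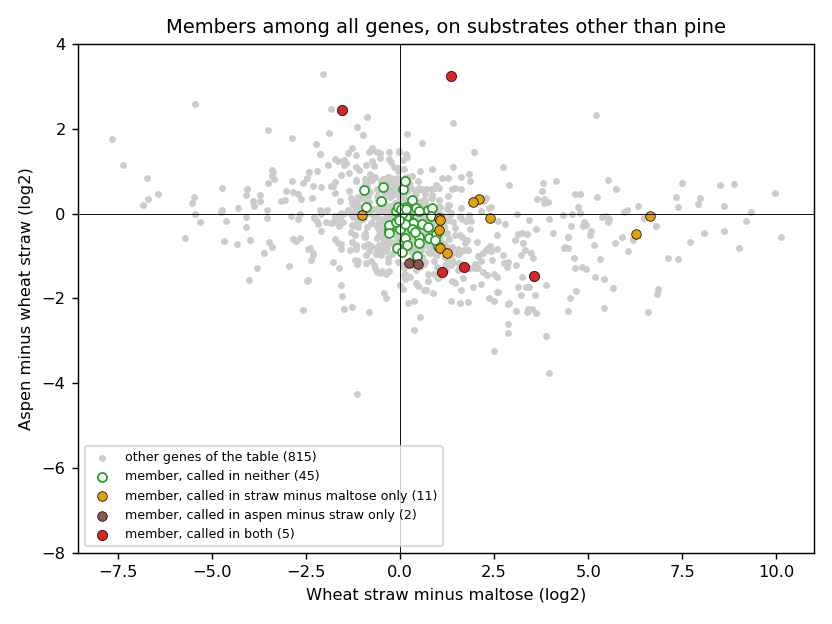
Aspen minus wheat straw (vertical axis, log2) against wheat straw minus maltose (horizontal axis, log2) for the 63 members (large points) and the other 815 genes (grey), from the deposited means. Of the members 45 were called in neither comparison and lie near the centre, 11 in straw minus maltose only, 2 in aspen minus straw only and 5 in both.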

How the data were processed

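PolyA RNA of 14 libraries was sequenced. The deposited table holds, per the file headers, log2 normalized read counts as 1 column per substrate. The submitters' processing notes list TopHat2, HTSeq and DESeq 1.5. How they were set, the scaling, the build and why these 878 genes were kept are not stated in those notes or the file.

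The members and the tests were chosen with earlier results of these data known. Each deposited value could be written as the mean, over the libraries of a substrate, of log2(count × factor + 1) with whole counts. Factors came from the 30 lowest values per column, and 30 of 30 were solved in each. Whole counts were then searched for every value within a relative tolerance of 5e-14 (1.8e-13 from level 10). A library could lie 6 from the mean up to level 8 and throughout pine, 4 up to 10, 3 up to 11, 2 up to 12 and 1 up to 13. Only single solutions were used, for 3954 of 4390 values. Another 367 values lay above the search, 62 gave more than 1 solution and 7 gave none. Shifted values that should have no solution gave a single one in 1 of 467 cases up to level 11 or in pine, and in 10 of 87 between 11 and 13. Library values above level 11 can therefore be wrong where the true spread is wider than searched. The factors give relative depths of 0.646 to 1.30.

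limma 3.58.1 (R 4.3.3) was fitted with 1 mean per substrate, a mean-variance trend and Benjamini-Hochberg adjustment over 867 genes, those that reached a level of 4 in 2 or more libraries. Means are the deposited ones. A substrate without recovered reads was assumed to vary like the others, and 52 of the 63 members had all 9 residual degrees of freedom. Scripts were tested on simulated data. Named genes are those with the 2 largest surpluses, the 2 highest pine levels, the 2 largest surpluses per class, the values next to the threshold, and the 2 largest called rises and falls per comparison, unless stated. Recovery used Python 3.11.15 with numba 0.67.0.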

Additional observations from a re-analysis of the deposited data

Results flagged for a closer look

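Gene 962148 was marked because its difference from maltose was larger on aspen (4.61) than on straw (1.36), by 3.25 in the test of aspen against straw. For gene 962413 the direction turned, with 0.89 on aspen, which was not called, and -1.54 on straw, a difference of 2.43. Gene 943186 was higher than on maltose by 2.07 on aspen and by 3.56 on straw, a difference of -1.48. For gene 1125002 the values were -0.28 on aspen, which was not called, and 1.10 on straw, a difference of -1.39. No explanation was tested.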

How the results depend on the processing

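Membership moved most with the rule's threshold and the scaling. A surplus of at least 0.5 left 41 genes, at least 1 left 6, and columns at equal medians left 37; the other 3 changes of the rule gave 63 to 91. Leaving out 1 library gave 57 to 69, where members without reads there kept the deposited mean. Genes recovered in every library (52 members) gave 10 higher and 2 lower for straw minus maltose, 6 higher and 1 lower for aspen minus maltose and 2 lower for aspen minus straw. Over all genes, the 2 comparisons with maltose then called 285 and 279 of 671 in either direction. Quantile normalization, run over those genes, gave 7 higher and 4 lower, 7 higher and 0 lower, and 1 lower. Over all genes it called 277 of 670 for straw minus maltose and 266 of 670 for aspen minus maltose in either direction. A fit of only straw and aspen gave 3 lower. Leaving out 1 library gave 2 to 4 members lower for cellulose minus maltose, 1 to 3 for straw minus maltose, 0 to 2 for aspen minus maltose and 3 to 4 for aspen minus straw. Where calls over all genes are not set beside these counts, no difference from other genes is read from them. With deposited means in place of libraries not recovered, an alternative chosen after seeing the data, both pine libraries lay above all others in 61 of 63 members. The share over all genes was not counted there, so nothing is read from it. Of all member counts, 105 of 126 alternatives stayed within 1.5 times the reported value. For counts over all genes, 51 alternatives stayed within it and 1 did not. Named log2 differences kept their direction in 171 of 171 and their call in 166. The pine surplus of named members moved by more than the spread between the pine libraries in 18 of 255. Most of these alternatives left out a library that does not enter the surplus or had no recovered reads. Gene 935358, for instance, kept 1.96 without any single library outside pine. The 18 of 255 is therefore not read as stability of the surplus. No paired analysis was possible because the recovered libraries carry no replicate number. Depth limits genes of few reads, and levels above 13 have no recovered spread outside pine.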
